A study of Danio rerio with 12 samples.

Results

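The regions described here were called as accessible in every library in the series, whether the cells were melanocytes or melanoma cells. Open chromatin was mapped by ATAC-seq. A transposase cuts DNA that is free of nucleosomes and leaves adapters there, so that the ends of the sequenced fragments (tags) pile up over open sites. The members were chosen from the peak lists alone. In each library the called intervals on chromosomes 1 to 25 of GRCz11 (danRer11) were ranked by the −log10 p of their strongest summit, and the 57910 strongest were kept, which is the size of the smallest list. The smallest list was thus kept whole, and the other complete lists held 62916 to 266537 intervals. A member is therefore not always among the strongest sites of a library. Overlapping intervals of all lists were merged into 192780 union regions, and 8298 of these (4.30%) were overlapped by the lists of all 12 libraries.

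Melanocytes are the black pigment cells that arise from the neural crest under the transcription factor Mitfa, and melanoma is the cancer of this lineage. Accessible DNA that is shared between cell types is known to include the promoters of housekeeping genes and sites bound by the insulator protein CTCF, whereas enhancers are more often open in particular cell types. A shared region can still be opened to different degrees, over different lengths and from different summits, and these are the measures compared below.

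Melanocytes (MC) were sorted from skin by mCherry driven from mitfa, with 1 fish per library. Of the MC libraries, 3 (MC_Het, replicates 4, 5 and 6) came from fish of genotype BRAFV600E/+/p53+/lf/mitfa+/-/mitfa:mCherry, and 1 (MC_Homo) came from a BRAFV600E/p53lf/lf/mitfa+/-/mitfa:mCherry fish. The 8 melanoma libraries (MA, replicates 4 to 11) came from tumours of BRAFV600E/p53lf/lf/crestin:EGFP fish, in which cells that express crestin, a neural crest gene, carry green fluorescence. Cells with this fluorescence were sorted from the tumours. All groups therefore carried the BRAFV600E transgene, which is driven by the mitfa promoter, and at least 1 p53 lf allele, so that no wild type melanocytes entered any comparison. Only the MC fish had mitfa+/- and the MiniCoopR construct, which supplies mitfa from a minigene. Sequencing run 2 held the 4 MC libraries with MA replicates 4 and 5, and run 3 held MA replicates 6 to 11. Cell type and run cannot be told apart outside run 2. Within run 2 the cell types still differ in mitfa genotype, fluorescent reporter and tissue of origin. MC_Het also differs from MA in the BRAFV600E and p53 genotype. None of these can be told apart from cell type.

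The number of tags, worked out from the scores of the peaks, lay between 6.05 and 24.6 M per library (M, the SI prefix mega), and MC_Het replicate 5 was the deepest. The strength of a site was its fold enrichment, the ratio of the tag pileup at the summit to the local background after 1 is added to each. In the absence of a control the local background includes the tags of the peak itself, so the ratio has an upper limit, and the highest value in a library was between 88.7 and 94.1. No gene annotation or genome sequence of this assembly was used here. Members are therefore named by position, and the labelled cell types were not checked against marker genes. No filter for repeats or poorly mappable sequence was applied here beyond the authors' limit on mapping quality. Whether some of the shared intervals are mapping artefacts was not tested.

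Of the union regions, 85461 were found in 1 library, 12852 in 6, 3951 in 10, 4245 in 11 and 8298 in 12. Members were thus more numerous than the regions of any class between 7 and 11 libraries. Of the 4245 regions found in 11 lists, 1733 were missing from MC_Homo and 557 from MC_Het replicate 4. Each other library was the missing one for 75 to 378 regions. MC_Homo had the shortest complete list, so none of its 1733 missing regions could lie below the limit of 57910.

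**Figure D1:**
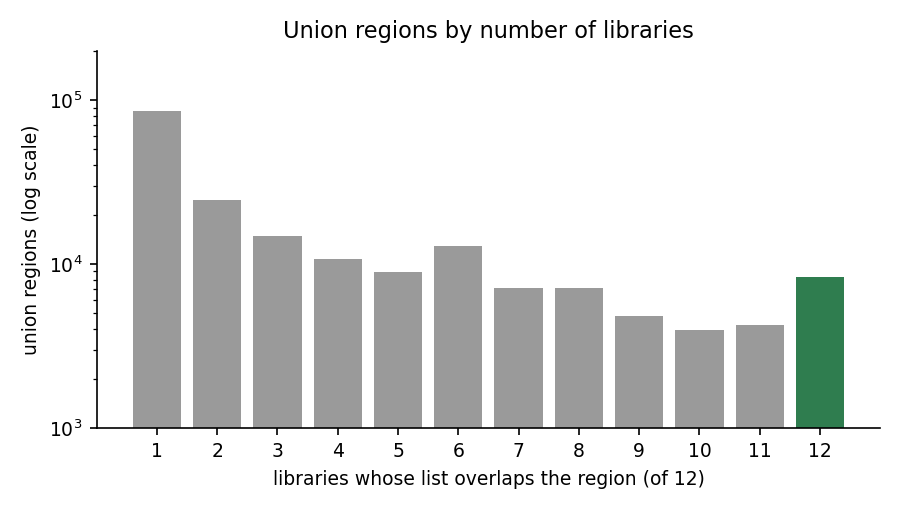
Union regions of the 12 equal-size lists (vertical axis, log scale) by the number of libraries whose list overlaps them (horizontal axis); the green bar marks the 8298 members. The count is highest at 1 library, with 85461 regions, and lowest at 10 libraries, with 3951.

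The limit of the ranking was narrow for some members. The member nearest to it, chr8:15863167-15863339, ranked 57908 in MA replicate 4 and 4312 in its best library. The 2 next members, chr8:13184813-13185358 and chr8:13158288-13158432, ranked 57899 and 57898 in the same library. Just outside, chr21:76393-76656 and chr21:723831-724192 ranked 57966 and 57970 in MA replicate 11, and chr8:37896546-37896675 ranked 57971 in MA replicate 4. Regions on either side of the limit thus differed by fewer than 100 places in 1 library.

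The members were spread over all 25 chromosomes, with 233 on chromosome 22 and 495 on chromosome 3. They made up between 3.4% of the union regions on chromosome 9 and 5.89% on chromosome 3. The median gap from one member to the next on the same chromosome was 82093 bp, against 3595 bp between all union regions. Of the gaps, 10.2% were under 10 kb, against 83.8% between all union regions. Members are 4.30% of the union regions, so longer gaps follow from their number. Whether members lie closer or farther apart than a random subset was not tested. The densest stretches of 100 kb held 7 members each and lay at chr6:40000001-40100000, chr9:1600001-1700000 and chr21:39400001-39500000.

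Member regions were 119 to 1893 bp wide, with a median of 303 bp, against 163 bp over all union regions. A member is merged from the intervals of 12 libraries, whereas 85461 union regions were found in 1. A greater merged width therefore follows in part from the rule. Together they covered 2.78 Mb, or 6.66% of the 41.8 Mb of the union. Most members were called as 1 interval in every library, and most had 1 summit in every library. In 6725 members every library had 1 interval, and in 5572 members (67.1%) the strongest interval had 1 summit in every library. At the other end, 86 members had several summits in every library. On average 8.37% of the strongest member intervals had several summits in MC libraries and 10.6% in MA libraries. Among the other intervals of the lists the means were lower, at 3.57% and 7.29%.

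How closely the strongest summits of the libraries coincided varied between members. The span of the summits of all libraries had a median of 30 bp and quartiles of 4 and 68 bp. The summits of all 12 libraries lay within 50 bp of each other in 66.4% of members and within 10 bp in 35.7%, and in 216 members they were identical. The median distance of a library's summit from the median summit of the other libraries was 5, 3, 4 and 6 bp in MC_Het replicates 4, 5 and 6 and MC_Homo. In MA it was 3 bp in 7 libraries and 4 bp in MA replicate 11. Group means were 4.5 ± 1.29 bp (SD, n = 4) for MC and 3.13 ± 0.354 bp (SD, n = 8) for MA. They differed by -1.38 bp, MA minus MC (two-sided exact permutation test with 495 labellings, p = 0.0343). For every library most of the other libraries were MA, so the reference summit leaned to the position in MA. A summit that moved between cell types would by itself place MC farther away. The test cannot tell this from a wider scatter in MC. The groups overlapped, and without MA replicate 6, 7, 8 or 9 the exact permutation p was 0.0697. The difference within run 2 was -1.5 bp (exact permutation p = 0.333, and this design cannot go below 0.0667).

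Rank by −log10 p chose the members, so the ranks are given without a test. Members filled 744 to 992 of the first 1000 places of each list and 3045 to 5804 of the first 10000. Their median rank in MC was 5308.5 in the lowest library, 11846.5 at the median and 14298.5 in the highest. In MA it was 5727, 7675.5 and 9566.5. Rank varied widely for the same region, since the worst rank of a member was more than 10 times its best in 59.4% of members. A core of 211 members stayed within the first 1000 places of all 12 libraries, and 64 of these stayed within the first 100.

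The member with the best mean rank, chr5:52427728-52428002, ranked 1 in 11 libraries and 2 in MA replicate 6. Its fold enrichment was 65.0, 61.4, 64.3 and 66.4 in MC_Het replicates 4, 5 and 6 and MC_Homo, and 66.3 (lowest), 67.7 (median) and 69.1 (highest) in MA. Behind it, chr5:14634607-14634806 had 76.2 to 78.0 in MC and 75.4 to 78.8 in MA, and chr16:51444992-51445199 had 81.9 to 87.7 in MC and 80.7 to 84.0 in MA. The ranges of the cell types overlapped in each of these regions.

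Since fold enrichment is bounded from above, its narrow range at these sites does not show a constant strength. The tags at the summit varied between libraries, from 211 to 361 per M at chr5:52427728-52428002. The intervals called at chr17:3995469-3995765 and chr6:2906660-2906833, the next in mean rank, were 297 bp and 174 bp wide in each of the 12 libraries. The remaining regions of the first 10 were chr21:41867037-41867360, chr13:6219100-6219298, chr19:10052366-10052770, chr23:20846189-20846417 and chr17:4279917-4280097. All 10 had 1 summit in every library. Their log2 differences in fold enrichment as deposited (MA minus MC) lay between -0.09 and 0.07, and the smallest limma adjusted p among them was 0.508. Relative to the median of each library, a scale explained below, all 10 were lower in MA by 0.45 to 0.62 on the log2 scale (limma adjusted p = 0.00734 to 0.0367). Since their differences as deposited were small, these values are close to the 0.52 that this scale subtracts. None of the 10 passed on this scale in run 2 alone (limma adjusted p = 0.122 to 0.26) or with run as a covariate (0.0884 to 0.205). The tags at their summits did not differ past the threshold either, with log2 differences in pileup per M tags of -0.46 to 0.03 and a smallest limma adjusted p of 0.13.

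The first comparison of cell types asked whether the intervals at members were wider, more divided or stronger in melanoma. For each library the median width of the strongest interval was taken over all members, with the mean number of summits and the median log2 fold enrichment. The width was 165, 231, 182 and 139 bp in MC_Het replicates 4, 5 and 6 and MC_Homo, and 206 (lowest), 219 (median) and 242.5 bp (highest) in MA. Thus 3 of the 4 MC libraries lay below every MA library, and MC_Het replicate 5 lay among them.

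Mean width was 179 ± 38.8 bp (SD, n = 4) for MC and 222 ± 13.8 bp (SD, n = 8) for MA. The difference of 42.8 bp passed the threshold of 0.05 (two-sided exact permutation test, p = 0.0162, or 0.0242 after Benjamini-Hochberg adjustment for the 3 measures). Without MC_Het replicate 4, MC_Het replicate 6 or MC_Homo it was 40.6, 45.7 or 33.5 bp and no longer passed (adjusted exact permutation p = 0.0545, 0.0545 and 0.0636). In run 2 alone it was 35.8 bp (adjusted exact permutation p = 0.5).

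Fold enrichment was higher in MA as well. The per-library median was 12.6, 17.3, 13.9 and 10.2 in MC_Het replicates 4, 5 and 6 and MC_Homo, and 14.3 (lowest), 18.1 (median) and 21.5 (highest) in MA. On the log2 scale, MC averaged 3.73 ± 0.31 (SD, n = 4) and MA 4.20 ± 0.19 (SD, n = 8), so that MA was higher by 0.48 (exact permutation p = 0.00606, adjusted p = 0.0182). Only MC_Het replicate 5, the deepest library, reached into the range of MA. Fold enrichment moves with the −log10 p that chose the members, although it entered the choice only to break ties. With any 1 library left out it was 0.42 to 0.63. In run 2 alone the difference was 0.43, and the 2 MA libraries lay above all MC libraries, yet the exact test could not pass (adjusted exact permutation p = 0.5). With the lists limited to the 10000 strongest intervals, which gave 922 members, almost no difference in width was left (-0.25 bp). The difference in log2 fold enrichment turned to -0.21 there. In sorted bulk cells, a site that is open in fewer cells and a site that is open less often in each cell cannot be told apart.

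Summit number did not differ past the threshold. MC intervals had 1.11 ± 0.0731 summits (SD, n = 4) and MA intervals 1.13 ± 0.0273 (SD, n = 8), which differ by 0.0203 (exact permutation p = 0.487). MC_Het replicate 5 had the highest value of all libraries, 1.21. Without it the difference was 0.0580 (adjusted exact permutation p = 0.0121).

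**Figure D2:**
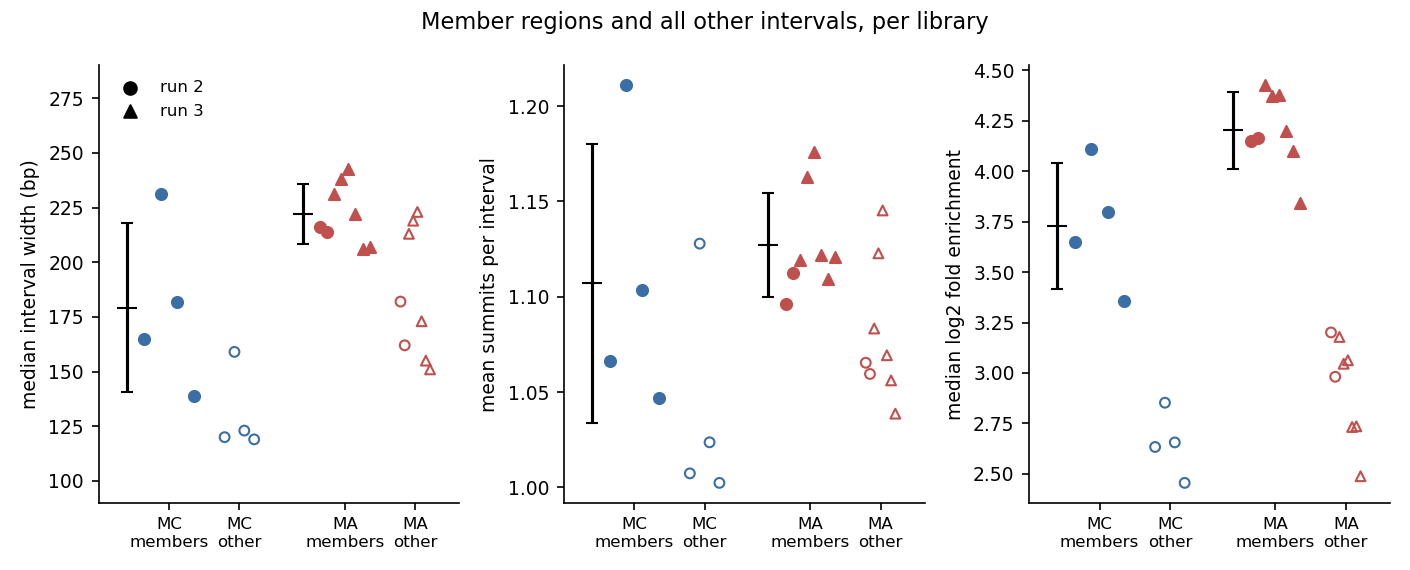
Median interval width in bp, mean number of summits per interval and median log2 fold enrichment (vertical axes) of the 8298 member regions (filled points) and of all other intervals in the same equal-size list (open points), 1 point per library, in MC (blue) and MA (red); circles are run 2, triangles run 3, and black bars give the mean ± SD of the filled points. Members exceed the other intervals of their own library in every panel, which follows in part from the rule that chose them. MA members average 222 bp and a log2 fold of 4.20 against 179 bp and 3.73 in MC.

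These differences were set against all other intervals of the same lists, to test whether they were greater at members. Members had to enter every list by −log10 p and were measured at their strongest interval. An excess over the other intervals therefore follows in part from the rule, and only its difference between cell types was tested. Members exceeded the other intervals in width by 49.0 ± 22.3 bp (SD, n = 4) for MC and by 37.3 ± 16.6 bp (SD, n = 8) for MA, which differ by -11.7 bp (exact permutation p = 0.321). For log2 fold enrichment the excess was 1.08 ± 0.15 in MC and 1.28 ± 0.16 in MA (exact permutation p = 0.0667, adjusted p = 0.155). For summit number it was 0.0667 ± 0.0181 in MC and 0.0473 ± 0.0170 in MA (exact permutation p = 0.103, adjusted p = 0.155). None of these 3 differences passed the threshold.

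Next, each region was compared on its own. All 9709 union regions with an interval in the complete list of every library, of which the members are 8298, entered a limma fit of log2 fold enrichment. The general rise in MA was removed by centring each library on its median over these regions, which shifted MA against MC by 0.52 on the log2 scale. Relative to this shift, 2114 members were higher in MA and 3564 higher in MC, and 2620 did not pass an adjusted p of 0.05. Of all regions tested, 66.9% were called, 26.5% higher in MA and 40.4% higher in MC. Members are most of these regions, so their shares of 25.5% and 43.0% must lie near those of the whole. Of the 1411 regions that were not members, 57.9% were called, 32.6% higher in MA and 25.3% higher in MC. These fell outside the equal-size list of at least 1 library, so they differ from members by the rule itself. Libraries of the cell types did not overlap in 930 members with MA above MC and in 2134 with MC above MA, against 11.7% and 23.4% of all regions tested. Among the regions that were not members the shares were 14.8% and 9.50%.

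The direction of these counts depended on the centring. For fold enrichment as deposited, 3608 members were higher in MA and 1494 higher in MC, against 44.4% and 17.1% of all regions tested. In total 61.6% of all regions were called on this scale. The tags at the summit alone, as pileup per M tags without centring, gave 4234 members higher in MA and 1017 higher in MC, against 52.4% and 11.5% of all regions tested. Within run 2 alone 899 members were higher in MA and 2509 higher in MC after centring, against 12.6% and 28.5% of all regions tested.

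Among the members whose libraries did not overlap, the 5 with the largest relative rise in MA went from weak sites in MC to some of the strongest in MA. At chr9:16185475-16185806, fold enrichment was 4.51, 5.49, 4.85 and 6.09 in MC_Het replicates 4, 5 and 6 and MC_Homo, and 23.4 (lowest), 34.2 (median) and 50.1 (highest) in MA. The relative log2 difference was 2.21 ± 0.20 (SE, limma adjusted p = 5.8e-06). Its rank was 27913 to 57557 in MC and 206 to 2884 in MA, so this member lay near the limit of the MC lists.

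The other 4 showed the same contrast. At chr18:46162082-46162347, fold enrichment was 6.20, 8.09, 6.79 and 4.87 in the MC libraries in the same order and 21.9, 37.8 and 49.1 (lowest, median, highest) in MA, a relative log2 difference of 1.99 ± 0.15 (SE). At chr5:6617109-6617523 it was 5.0, 8.38, 5.93 and 6.67 in MC and 20, 33.6 and 39.9 in MA (1.81 ± 0.17). MA replicate 11 was the lowest MA library there. At chr18:9708608-9708956 it was 7.0, 6.23, 4.98 and 3.96 in MC and 16.8, 27.0 and 39.4 in MA (1.73 ± 0.21), with the lowest MA values in run 2. The fifth, chr20:5005798-5006257, had 5.07, 7.80, 5.82 and 4.87 in MC and 20.6, 27.9 and 40.2 in MA (1.71 ± 0.16). These members were picked from those without overlap, so their separation restates the choice. The limma adjusted p of the 4 was 3.3e-05 or lower. The tags themselves rose more than the ratio, by 3.33 to 4.12 on the log2 scale in these 5 members. Pileup at chr9:16185475-16185806 was 0.731 to 1.4 tags per M in MC and 7.44 to 33.9 in MA, while the local background was 0.100 per M in each MC library, which is the uniform level over the genome, and 0.160 to 0.573 in MA.

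The 5 members with the largest relative fall in MA were narrow and strong in MC. At chr13:41062143-41062262, where every interval was 119 or 120 bp wide, fold enrichment was 41.1, 52.4, 45.2 and 40.4 in MC_Het replicates 4, 5 and 6 and MC_Homo, and 4.76 (lowest), 10.7 (median) and 26.4 (highest) in MA. The relative log2 difference was -2.55 ± 0.40 (SE, limma adjusted p = 0.000166). Yet the tags at its summit were 11.3 to 14.3 per M in MC and 8.42 to 15.2 in MA, a log2 difference of -0.27 (limma adjusted p = 0.282). The local background beneath it was 0.176 to 0.203 per M in MC and 0.402 to 1.69 per M in MA.

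A raised local background in MA accompanied the other 4 as well. Fold enrichment at chr14:5006922-5007050 was 25.8, 37.7, 25.2 and 27.2 in MC and 5.28, 7.36 and 12.3 in MA (lowest, median, highest; relative log2 difference -2.42 ± 0.29). At chr19:26824683-26824862 it was 23.8, 26.1, 24.8 and 25.7 in MC and 4.99, 6.27 and 16.3 in MA (-2.24 ± 0.36). At chr19:40311279-40311465 it was 27.6, 40.0, 28.7 and 29.3 in MC and 4.76, 9.01 and 18.2 in MA (-2.23 ± 0.37). These 3 were likewise chosen among members without overlap. At chr17:50216956-50217080 fold enrichment was 22.8, 26.4, 28.4 and 18.8 in MC and 5.50, 7.58 and 11.2 in MA (-2.16 ± 0.24). At each of the 4 the background was higher in every MA library than in every MC library, and over the 4 it ran from 0.100 to 0.203 per M in MC and from 0.198 per M upward in MA. In pileup per M tags, the log2 differences were -0.49 to -0.71, and that of chr17:50216956-50217080 did not pass (limma adjusted p = 0.101).

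**Figure D3:**
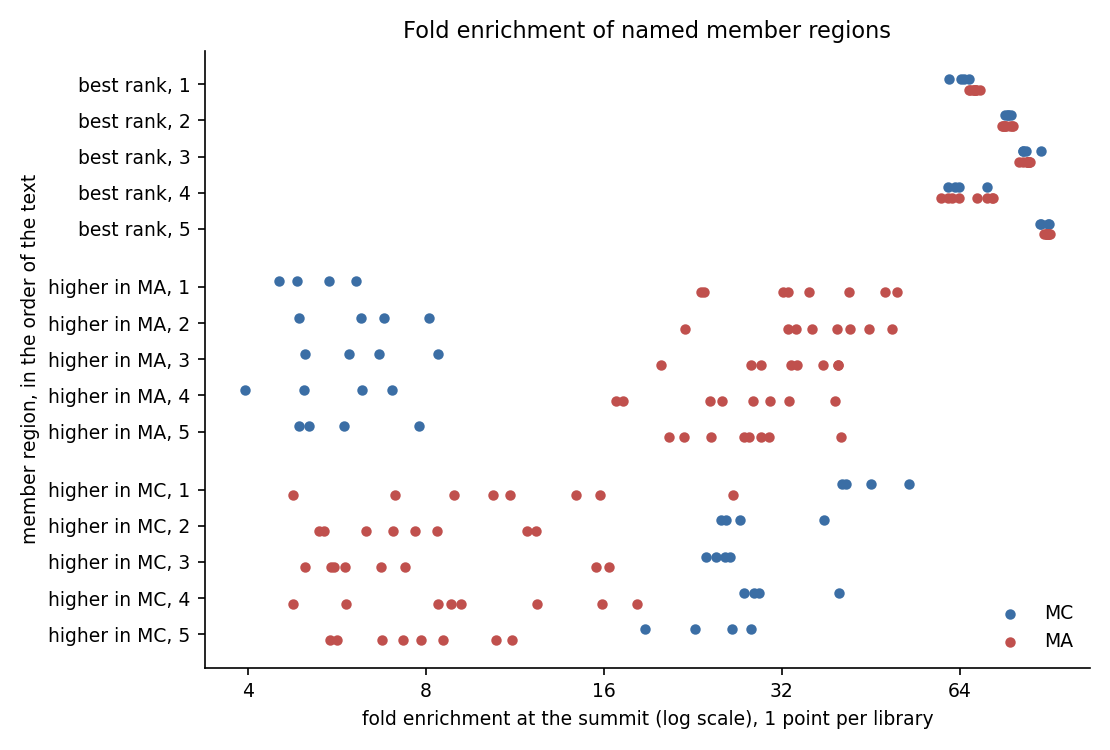
Fold enrichment at the summit (horizontal axis, log scale) of 15 member regions (vertical axis, in the order of the text), 1 point per library, MC blue and MA red. The 5 regions of best mean rank stay between 59.5 and 90.8 in both cell types, whereas the regions chosen for their difference show no overlap, from 3.96 to 8.38 in MC against 16.8 to 50.1 in MA for those higher in MA, and from 18.8 to 52.4 in MC against 4.76 to 26.4 in MA for those higher in MC.

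The order of the members, from weak to strong, was then compared between libraries. Spearman's correlation of fold enrichment over the 8298 members averaged 0.84 in the 6 pairs of MC libraries (0.82 to 0.87) and 0.73 in the 28 pairs of MA libraries (0.52 to 0.88). In the 32 pairs of 1 MC and 1 MA library it averaged 0.37 (0.05 to 0.67). Members and libraries are shared between pairs, so only the labelling of libraries was tested. Pairs of the same cell type exceeded mixed pairs by 0.38 (two-sided exact permutation test, p = 0.00202, the smallest that 495 labellings allow), and the next highest labelling gave 0.23. Run 2 on its own gave 0.42 (exact permutation p = 0.0667, which is the lowest this design allows). Although all members were called in both cell types, the cell types thus ranked them differently.

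MA libraries differed in how far their order departed from that of MC. The mean correlation with the 4 MC libraries was lowest in MA replicate 6, at 0.14, and in MA replicate 7, at 0.21. It was 0.26 in MA replicate 4, 0.37 to 0.45 in MA replicates 8, 9 and 10, and 0.54 in MA replicate 5. MA replicate 11 had the highest, at 0.62, close to its mean of 0.64 with the other MA libraries. The 2 MA libraries of run 2 therefore lay apart from each other, within the span of run 3.

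**Figure D4:**
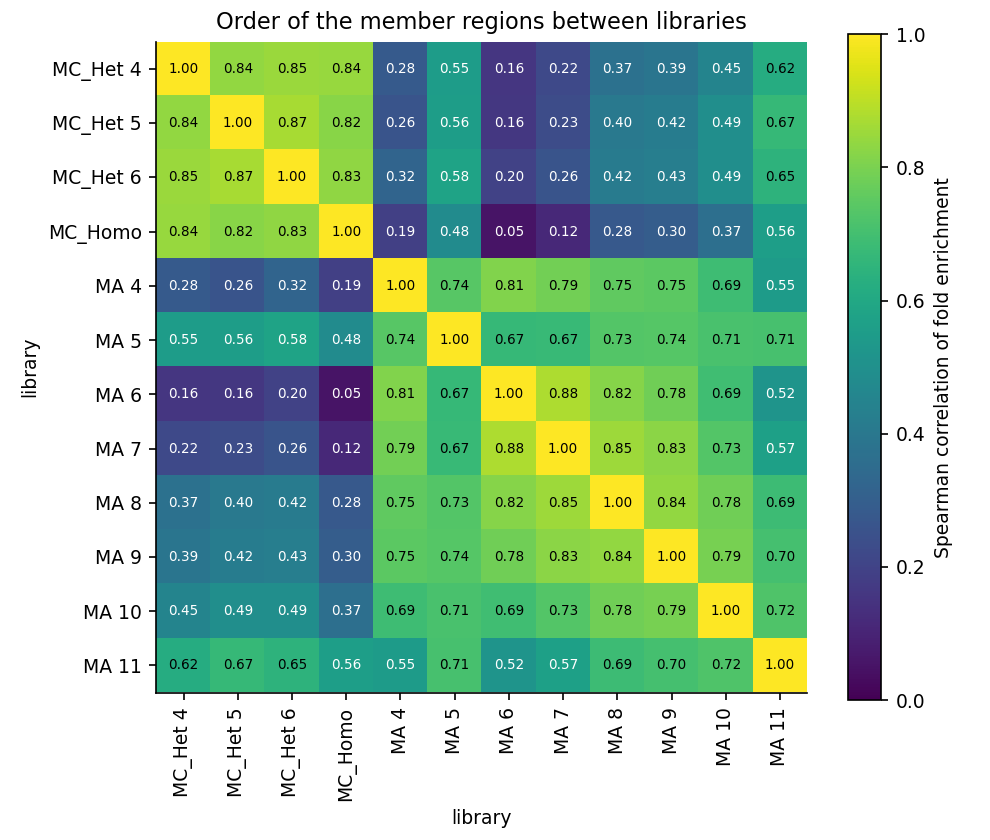
Spearman correlation of fold enrichment over the 8298 member regions for each pair of libraries (both axes, libraries in the order of the labels; colour and printed value give the correlation). MC libraries form a block of 0.82 to 0.87, MA pairs range from 0.52 to 0.88, and mixed pairs fall to 0.05 between MC_Homo and MA replicate 6.

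A property of the members that the choice did not use was how exactly their edges coincided. For each member, the edge range was taken as the larger of the spans covered by the start and by the end of the strongest interval over the 12 libraries. These classes were formed after the values had been seen, so they carry no test. The range is also taken over libraries of both cell types, so a member whose interval changed between them enters a class by that change. The values below describe the classes and support no difference between cell types. The quartiles of the edge range were 9, 89 and 212 bp. In 1747 members (21.1%) both edges stayed within 5 bp in all libraries, and in 372 the interval was identical to the base in all 12. At the other extreme, 5266 members (63.5%) had an edge that moved by more than 50 bp.

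Members with fixed edges were short and simple. Their median region width was 124 bp, against 408 bp for members whose edges moved by over 50 bp, and in 476 every library had an interval of 119 to 121 bp. Nearly all, 99.3%, had 1 summit in every library, against 49.8%. They were also common at the top of the lists, since 120 of the 211 members that stayed within the first 1000 places had fixed edges. Their share of the members of a chromosome went from 17.3% on chromosome 8 to 29.2% on chromosome 15.

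In members with fixed edges, the per-library median fold enrichment was 25.6, 36.7, 26.9 and 26.7 in MC_Het replicates 4, 5 and 6 and MC_Homo, and from 16.6 to 22.9 in MA. In members with edges over 50 bp apart it was 9.58, 13.2, 10.9 and 7.14 in MC and from 12.5 to 23.5 in MA. The ranges of the cell types did not overlap in the first class, and in the second they overlapped through MC_Het replicate 5 and MA replicate 11. The median rank in MC was 1519 to 2882 for fixed edges and 9098.5 to 21572 for edges over 50 bp apart. In MA the medians were 2708 to 16057 for fixed edges and 6120 to 7395.5 for moving edges.

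Tags at the summit were described in the same way. Fixed-edge members had a median pileup of 6.99 ± 0.798 tags per M across MC libraries (SD, n = 4) and of 5.12 ± 0.820 across MA libraries (SD, n = 8). For members with moving edges it was 2.35 ± 0.331 in MC and 6.86 ± 1.64 in MA. The MA libraries of run 2 had 5.23 and 6.46 as means of the 2 classes, on the same side of MC as those of run 3. The local background at fixed-edge members was not raised in MA, with 0.151 ± 0.00864 per M in MC and 0.112 ± 0.0122 in MA. At members with moving edges it was 0.136 ± 0.00664 in MC and 0.229 ± 0.0332 in MA.

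Region by region, 709 of the 1747 fixed-edge members were higher in MC in fold enrichment as deposited and 8 were higher in MA (40.6% and 0.458%, against 17.1% and 44.4% of all regions tested). Of the 5266 members with moving edges, 3475 were higher in MA and 333 higher in MC (66.0% and 6.32%). After centring, 95.9% of fixed-edge members were called higher in MC, while 38.9% of those with moving edges were called higher in MA and 15.95% higher in MC, against 26.5% and 40.4% of all regions tested. The medians of the log2 difference as deposited were -0.44 and 0.87, and in pileup per M tags they were -0.44 and 1.57. The classes passed over into each other, since 29.97% of the 594 members with an edge range of 21 to 50 bp were higher in MC as deposited and 20.2% higher in MA. Within run 2 the centred medians were -0.96 and 0.31, against -0.97 and 0.34 in all libraries. The centred calls were fewer there. Of fixed-edge members 72.1% were higher in MC, and of those with moving edges 16.6% were higher in MA and 8.79% higher in MC. Over all regions tested in run 2, 12.6% were higher in MA and 28.5% higher in MC. With run as a covariate the 3 shares were 72.4%, 19.6% and 8.37%. Of all 9709 regions, 1363 were then higher in MA and 2659 higher in MC.

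**Figure D5:**
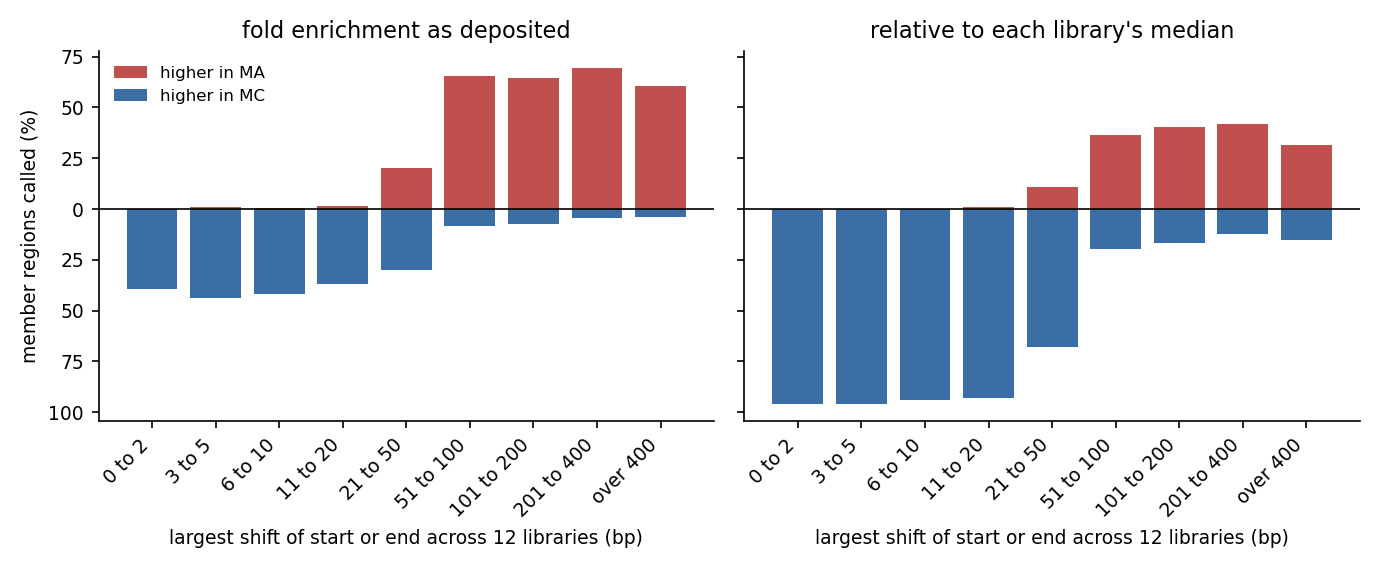
Percent of member regions called by limma as higher in MA (red, upward) or higher in MC (blue, downward) in fold enrichment, by the largest shift of the start or end of the interval across the 12 libraries (horizontal axis, bp), as deposited (left) and relative to each library's median (right). As deposited, 39.1% of members with edges within 2 bp are higher in MC and 0.248% higher in MA, and in the class of 201 to 400 bp 4.50% are higher in MC and 69.6% higher in MA.

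Width was also compared region by region. As deposited, log2 width was greater in MA in 750 members and in MC in 87 (limma, adjusted p under 0.05), against 11% and 0.989% of all regions tested, or 11.9% in either direction. Centring each library on its median width, a shift of 0.38 on the log2 scale, turned the counts to 394 greater in MA and 3774 greater in MC, against 7.15% and 41.4% of all regions tested and 48.6% in either direction. The centred counts include intervals that did not change. At chr17:3995469-3995765, 297 bp wide in all 12 libraries, the centred log2 difference was -0.38 (limma adjusted p = 0.0221), which is the subtracted shift itself. A centred call for MC therefore need not mean a narrower interval in MA. Centred widths did not overlap in 145 members with MA above MC and in 429 with MC above MA, against 2.67% and 4.95% of all regions tested. The centred count of 4168 members fell to 712 without MC_Het replicate 4 and to 738 without MC_Homo. Over all 9709 regions tested, 4714 calls fell to 946 and 993. In run 2 alone 59 members were called greater in MA and 10 greater in MC, against 1.09% and 0.227% of all regions tested. Most of the few calls left were thus for MA. The median centred log2 difference of members stayed negative, at -0.30, against -0.29 in all libraries. With run as a covariate the counts were 76 and 51, against 1.56% and 0.731%.

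Among the 5 members with the largest relative gain in width in MA, 4 had intervals of 119 or 120 bp in every MC library. The strongest summits of the libraries spanned 173 to 476 bp at these 5. The intervals compared need not be the same site, therefore, and a widening of 1 site was not tested. At chr25:15312854-15313929 the interval was 119 bp in all 4 MC libraries and 380 (lowest), 665.5 (median) and 941 bp (highest) in MA, a relative log2 difference of 2.02 ± 0.25 (SE, limma adjusted p = 0.000227). At chr23:26688651-26689337 and chr25:30019165-30020062 it was likewise 119 bp in each MC library, with 430 to 687 bp and 381 to 738 bp in MA. At chr2:2389388-2390270 it was 119 or 120 bp in MC and 235 to 761 bp in MA. At chr2:21805377-21806013 it was 119 bp in 3 MC libraries, 186 bp in MC_Het replicate 5 and 524 to 634 bp in MA. Fold enrichment was called at 1 of these 5 members, chr2:21805377-21806013, both relative to the library medians (limma adjusted p = 0.0497) and as deposited (0.00267), and at none of the other 4 on either of these scales. In pileup per M tags, chr23:26688651-26689337 (1.20, limma adjusted p = 0.0148) and chr25:30019165-30020062 (1.13, 0.0102) were also called higher in MA.

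In the other direction the differences were smaller and less even. At chr19:46303905-46304600 the interval was 457, 637, 188 and 249 bp in MC_Het replicates 4, 5 and 6 and MC_Homo and 128 to 175 bp in MA (-1.69 ± 0.22, limma adjusted p = 0.00025). At chr8:5516507-5517246 it was 353, 735, 734 and 735 bp in MC and 258 to 346 bp in MA (-1.47 ± 0.20). At chr9:26611009-26611539 it was 186, 253, 464 and 149 bp in MC and 119 to 138 bp in MA (-1.35 ± 0.20). As deposited, the MC libraries lay above MA in each of these 3. The strongest summits of the libraries spanned 223, 579 and 6 bp at them. At chr22:4551-4895 and chr3:12132357-12132928 the raw widths overlapped, since MC_Homo (119 bp) and MC_Het replicate 6 (119 bp) matched the widths of MA. None of the 5 passed in run 2 alone, where the smallest limma adjusted p was 0.0523.

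The widest members were long in different libraries. The interval at chr25:1079864-1081756, the widest region with 1893 bp, was 1857 to 1876 bp in MC and 671 to 1888 bp in MA, and it had several summits in all 12 libraries. At chr2:40602094-40603801, of 1708 bp, it was 1219 to 1675 bp in MC and 567 to 1229 bp in MA, again with several summits in every library. This member was also the strongest of the wide ones, with a mean rank of 273. The remaining 3, chr13:4847564-4849330, chr20:53802752-53804454 and chr3:7654805-7656301, were merged from intervals of very unequal length, such as 104 to 604 bp in MC and 167 to 1212 bp in MA at the first of them.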

How the data were processed

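ATAC-seq peak lists of 12 libraries (4 MC, 8 MA) were analysed. The authors trimmed reads with cutadapt, aligned them to GRCz11 with BWA, kept proper pairs of mapping quality over 30, removed duplicates with GATK, and called peaks per library with MACS2 without a control (extension 100 bp, shift -50 bp, genome size 1000000000 bp). The builds named in the submitters' notes also include GRCz10. The deposited columns hold the fold enrichment, a ratio of summit pileup to local background, and the −log10 of the p-value and of the q-value. Peaks are not counts, so no count test was run.

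Members and lists were chosen with earlier results of these data known. Tags and pileups were solved from the deposited fold enrichment and −log10 p. These pileups were whole numbers within 0.05 for over 99% of values in each library. Groups were compared by exact permutation of per-library values and by limma 3.58.1 (R 4.3.3) on log2 values with Benjamini-Hochberg adjustment over 9709 regions, with Python 3.11.15, NumPy 2.4.6, pandas 2.3.3 and SciPy 1.17.1 for the other steps. Simulated data for the 9709 regions had independent normal noise and changes added to 200 regions. There the fold fit recovered 61% of log2 changes of 1 and 100% of those of 2, with 6.4% false calls. The width fit recovered 87% and 98%, with 5.13%. The simulation held no run effect and no general shift between cell types, so these rates need not hold for the data.

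Regions were named by rule: the 10 of best mean rank, the 5 called and not overlapping on the centred scale with the largest difference in each direction for fold and for width, the 3 on either side of the limit, and the 5 widest. Edge classes were added after the values were seen. Alternatives were other list sizes, overlaps, rankings, scalings and tests, run 2 only, run as a covariate, each library left out, and the replicate number as a block. Gene lists, cell markers and motifs were planned and not analysed here, since no annotation or sequence of this build was used. Intervals outside chromosomes 1 to 25 entered no comparison.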

Additional observations from a re-analysis of the deposited data

Results flagged for a closer look

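In 11 of 78 groups of libraries, the highest or lowest value lay far from the rest by Dixon's criterion. For untied normal values chance meets it in about 1 of 20 groups. Several groups here held tied values, and regions among them were chosen for their differences, so the count cannot be set against that rate. MA replicate 11 had a median summit distance of 4 bp, against 3 bp in every other MA library. Its members also exceeded its other intervals by 0.0820 summits, against 0.0306 to 0.0534 in the other MA libraries.

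MC_Het replicate 5, the deepest library, stood apart at 3 members. Its fold enrichment was 37.7 at chr14:5006922-5007050, where the other MC libraries had 25.2 to 27.2, and 40 at chr19:40311279-40311465, where they had 27.6 to 29.3. Its interval at chr2:21805377-21806013 was 186 bp wide, and those of the other MC libraries were 119 bp.

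The other flagged values were widths. MA replicate 4 had 738 bp at chr25:30019165-30020062 (381 to 543 bp in the other MA libraries), and MA replicate 5 had 175 bp at chr19:46303905-46304600 (128 to 137 bp). MC_Het replicate 4 had 353 bp at chr8:5516507-5517246 (734 or 735 bp in the other MC libraries), and MC_Homo had 119 bp at chr22:4551-4895 (326 to 337 bp). MA replicate 11 had 138 bp at chr9:26611009-26611539 and MA replicate 8 had 100 bp at chr3:12132357-12132928, where the other MA libraries had 119 bp.

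Outside chromosomes 1 to 25, 469 of 9244 union regions were overlapped by all 12 libraries, of which 14 lay on the mitochondrial chromosome. These scaffolds were used in no comparison.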

How the results depend on the processing

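With the 10000 or the 30000 strongest intervals per library, 922 or 4288 regions were members. At 10000 the differences (MA minus MC) were -0.25 bp in width, -0.0222 in summits and -0.21 in log2 fold enrichment, and those of the excess over other intervals were -176 bp, -0.145 summits and -0.32. With complete lists the difference in the excess in width turned to 17.5 bp, against -11.7 bp in the main setting. In run 2 alone the values were 35.75 bp, -0.00265 summits, 0.43 in log2 fold, -0.0127 in its excess, -1.5 bp in summit distance and 0.42 in the order. Mean width differed by 34.7 bp. With 1 library left out, the ranges were 33.5 to 62.2 bp in width, 0.00580 to 0.0580 in summits and -1.85 to -0.839 bp in summit distance. Members called in fold enrichment numbered 3408 in run 2 and 3490 with run as a covariate, against 5678. Of all 9709 regions tested, 3985, 4022 and 6495 were called in these settings. Members called in width numbered 69 in run 2 (59 greater in MA) and 127 with run as a covariate (76 greater in MA). They numbered 837 without centring and 1067 after quantile normalization, against 4168 in the main setting. Of all regions tested, 128, 222, 1160, 1354 and 4714 were called in these settings. With 1 library left out, 712 to 4699 members were called in width, and 946 to 5259 of all regions tested. Of the members called in fold, 37.2% were higher in MA when centred, 70.7% as deposited and 49.9% after quantile normalization. Over all regions tested, 2574 of 6495, 4312 of 5977 and 2707 of 5299 calls were higher in MA. Same-numbered libraries correlated at 0.05 to 0.09 in fold and at -0.08 to 0.08 in width. Only 6 libraries entered, so these values cannot decide whether the numbers pair them. The replicate block gave 359 calls in width and 4145 in fold among members, against 125 and 4165 in the same 6 libraries unblocked. Over all regions tested the calls were 665 and 4920, against 224 and 4838. For regions named for their difference in fold or width, 427 alternative values kept the call, 13 lost it and 0 turned the sign. These regions were picked in the same libraries as called, not overlapping and largest in difference, so kept calls partly restate the choice. The members of best mean rank were not included. Their centred calls in fold did not pass in run 2 alone, with run as a covariate or as deposited. The causes were not tested. Precision is limited by the 4 MC libraries.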
